A study of Mus musculus with 43 samples.

Results

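The 10 genes described here encode integrin receptor subunits of brain EC: the alpha subunits Itga1, Itga3, Itga4, Itga5, Itga6 and Itgav and the beta subunits Itgb1, Itgb3, Itgb4 and Itgb5. They were chosen by gene symbol, and each symbol matched 1 of the 54532 genes counted. RNA was sequenced from EC sorted by FACS as CD45-, CD11b- and CD31+ cells from the cortex (21 libraries) or hippocampus (22 libraries) of mice aged 2 months. The 43 libraries came from 5 long-inbred strains, 129S1/SvImJ (9 libraries), A/J (5), C57BL/6J (6), DBA/2J (5) and NOD/ShiLtJ (6), and from 2 wild-derived strains, CAST/EiJ (6) and WSB/EiJ (6). None of the groups carried a transgene or received a treatment according to the labels. Females gave 16 libraries and males 27, and titles mark each library as high or low, terms the sources used here do not define (14 high and 13 low among males, 15 of 16 high among females). The labels do not say which libraries share a mouse, so p-values measure the spread between libraries, some of which may come from 1 animal.

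Integrins are receptors made of 1 alpha and 1 beta subunit that tie a cell to the matrix around it. In brain vessels the EC rest on a basement membrane of laminins, collagen IV and perlecan that they share with pericytes and astrocyte endfeet, and integrins are the main receptors for it. Itgb1 pairs with most alpha subunits. Itga1 with Itgb1 binds collagens and laminins, Itga3 and Itga6 with Itgb1 bind laminins, Itga5 with Itgb1 binds fibronectin, and Itga4 with Itgb1 binds VCAM-1 and fibronectin and is best known from leukocytes. Itgav pairs with Itgb1, Itgb3 or Itgb5 and binds vitronectin and other ligands with an RGD motif, while Itgb4 pairs only with Itga6.

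Total counts per library ranged from 1626534 to 49372356, with a median of 5790701. Depth moved with the groups: the median was 21242058 in female and 5257353 in male libraries, and WSB/EiJ had the lowest median of the strains (2721155). A level of 3 counts, taken as the floor of detection, was 0.0537 to 1.84 CPM (read counts scaled to the effective library size) depending on the library. EC markers were abundant throughout, with 19 or 20 of 20 markers above 3 counts in each library and a summed level of 12042 to 25188 CPM. Markers of pericytes (2044 to 9489 CPM summed over 10 genes) and astrocytes (1133 to 19857 CPM) were also present, while no library had more than 3 of 10 leukocyte markers above 3 counts. In these bulk samples, fewer cells of a type and less RNA per cell cannot be told apart.

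Promoters are shown for 3 subunits: Itga4, which differed between strains, Itga1 and Itgb1. Itga1 passed the test between title tags close to the threshold, a result that most alternatives described below did not keep. Itgb1 is their shared partner and the most abundant subunit. Each sequence holds 250 bases before and 50 bases after the gene start, from RefSeq on GRCm38.p6, the build of the counts (mm10), 5′ to 3′ on the gene's strand. Capitals mark the motifs GGGCGG and CCGGAA on either strand, which do not overlap here. The Itga4 window lies at chr2:79255176-79255475 (+), that of Itga1 at chr13:115101915-115102214 (-) and that of Itgb1 at chr8:128685404-128685703 (+).
Itga4: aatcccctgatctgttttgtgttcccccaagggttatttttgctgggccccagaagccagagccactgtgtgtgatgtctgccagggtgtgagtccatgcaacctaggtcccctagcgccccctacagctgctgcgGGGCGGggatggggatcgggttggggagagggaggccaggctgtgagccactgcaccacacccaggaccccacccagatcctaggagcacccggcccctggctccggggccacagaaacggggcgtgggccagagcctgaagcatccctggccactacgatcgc
Itga1: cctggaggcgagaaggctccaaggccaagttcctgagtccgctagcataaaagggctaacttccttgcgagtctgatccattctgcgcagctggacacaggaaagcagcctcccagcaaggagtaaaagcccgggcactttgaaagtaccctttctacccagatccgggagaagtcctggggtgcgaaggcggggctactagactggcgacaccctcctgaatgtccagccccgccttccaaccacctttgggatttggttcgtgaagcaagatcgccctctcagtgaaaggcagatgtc
Itgb1: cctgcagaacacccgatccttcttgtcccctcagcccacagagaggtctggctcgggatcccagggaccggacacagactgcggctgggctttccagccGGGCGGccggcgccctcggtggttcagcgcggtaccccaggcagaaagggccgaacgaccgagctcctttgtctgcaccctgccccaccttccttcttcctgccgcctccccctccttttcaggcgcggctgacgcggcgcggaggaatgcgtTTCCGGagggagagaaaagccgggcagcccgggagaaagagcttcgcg
GGGCGG occurred once in the Itga4 window and once in that of Itgb1, and in 35.66% of all 32851 promoter windows of this length. CCGGAA occurred once in the Itgb1 window, on the reverse strand, and in 14.9% of all windows. The Itga1 window held neither motif, and TATAAA, found in 13.62% of all windows, was in none of the 3. GC content was 64.3% for Itga4, 56.7% for Itga1 and 67.3% for Itgb1 against a median of 52.7% over all windows. Promoter windows were found for 7 of the 10 genes, and none is shown for Itga6, Itgb3 and Itgb4.

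Levels of different genes were compared as CPM per kilobase of exon (CPM/kb). Itgb1 was the most abundant subunit, with a median of 111 CPM/kb (60.7 to 145) over the 43 libraries, and it exceeded Itga6 in 42 of 43. Itga6 followed at 52.7 CPM/kb (26.3 to 93.8) and Itga1 at 23.0 CPM/kb (14.04 to 37.28), with Itga6 above Itga1 in 43 of 43 libraries. The laminin and collagen receptors thus led the alpha subunits: of the summed level of the 6 alpha genes, Itga6 made up a median of 54.9% and Itga1 25.2%.

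Among the beta subunits, Itgb1 made up a median of 88.4% of the summed level of the 4 genes (72.3% to 96.2%) and Itgb5 10.6%. Itgb5 had a median of 12.8 CPM/kb and lay below Itga1 in 35 of 43 libraries. Itga3 (6.37 CPM/kb), Itga5 (5.98 CPM/kb) and Itgav (5.14 CPM/kb) had no stable order, since Itga3 exceeded Itga5 in 21 of 43 libraries and Itgav in 27 of 43. Itga4 was lower, at a median of 2.03 CPM/kb.

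**Figure D1:**
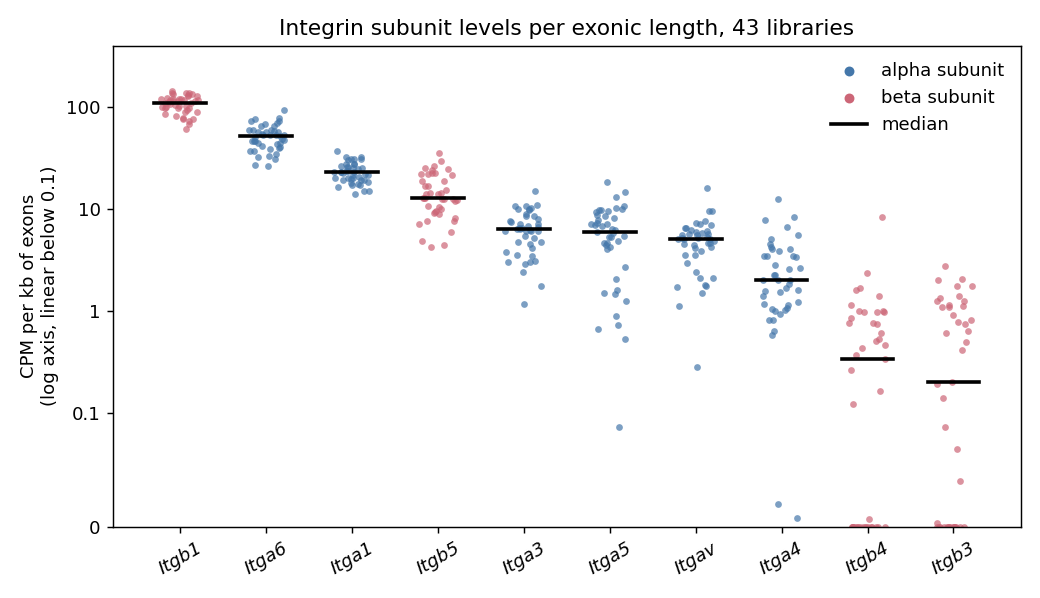
Level of each of the 10 integrin subunits in every library, as CPM per kilobase of exon on a log axis that is linear near 0, with lines at the medians. Itgb1, Itga6 and Itga1 form the upper group with medians of 111, 52.7 and 23.0 CPM/kb, while Itgb3 and Itgb4 are at or below 3 counts in 19 of 43 libraries each.

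Itgb3, a partner of Itgav, and Itgb4, the partner of Itga6, were close to the limit of detection. Each was at or below 3 counts in 19 of 43 libraries, and their medians were 0.200 and 0.343 CPM/kb. Itgb3 was above 3 counts in every DBA/2J library (9.35 ± 3.27 CPM, mean ± SD, n = 5) and every A/J library (7.98 ± 4.86 CPM, n = 5), but in only 1 of 6 WSB/EiJ libraries. The depth of WSB/EiJ was the lowest of the strains, and neither gene passed the strain test below, so no order of the strains was read from them.

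Itgb1 and Itga1 were the steadiest subunits. The coefficient of variation over the 43 libraries was 19.5% for Itgb1, 23.1% for Itga1 and 28.5% for Itga6, against 45.2% to 65.6% for Itga3, Itgb5, Itgav and Itga5 and 89.0% for Itga4. It reached 119% for Itgb3 and 201% for Itgb4, the 2 subunits with the fewest counts.

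Strains were compared first, in 1 test of any difference among the 7. Itga4 and Itga6 differed, that is 2 of 10 genes, against 2.68% of the 29120 genes tested (edgeR's quasi-likelihood test with Benjamini-Hochberg adjustment over all genes, adjusted p = 0.00202 and 0.0265). The other 8 did not pass, with adjusted p from 0.397 (Itgav) to 0.899 in the same edgeR test. The median F statistic was 1.43 for the 10 genes and 1.02 for all genes. Reads of every strain were aligned to mm10. The paper gives the wild-derived strains as those with the most single nucleotide polymorphisms. An effect of strain sequence on the counts was not tested.

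Itga4, the alpha subunit of the VCAM-1 receptor, was highest in WSB/EiJ. The 6 WSB/EiJ libraries held 118, 178, 56.7, 59.2, 93.1 and 110 CPM for replicates 1 to 6 (mean 102 ± 44.9 CPM). The 5 A/J libraries held 54.3, 22.4, 48.9, 78.3 and 48.3 CPM (50.4 ± 19.9), and C57BL/6J held 28.4 to 71.7 CPM with a median of 42.1 (47.3 ± 16.9, n = 6). Both strains lay below most WSB/EiJ libraries but overlapped with the lowest of them.

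The 4 remaining strains had lower means for Itga4, close to each other. NOD/ShiLtJ held 22.4 ± 10.1 CPM (n = 6, median 18.5, 13.1 to 40.1), 129S1/SvImJ 21.7 ± 16.8 CPM (n = 9, median 14.8, 0.1 to 56.6), CAST/EiJ 19.2 ± 16.1 CPM (n = 6, median 15.8, 0.278 to 48.2) and DBA/2J 18.8 ± 7.79 CPM (n = 5, median 21.4, 8.13 to 28.3). Of the 37 libraries of the other 6 strains, 3 lay above the lowest WSB/EiJ library, and 2 of 6 WSB/EiJ libraries lay below the highest of the others. The lowest values were 4 counts in 129S1/SvImJ replicate 6 and 1 count in CAST/EiJ replicate 4.

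Each strain was then set against the mean of the other 6. Itga4 in WSB/EiJ was the only member called in any of the 7 contrasts: it was higher by 1.90 ± 0.37 (SE) on the log2 scale, with a 95% interval of 1.17 to 2.63 (edgeR's quasi-likelihood test with Benjamini-Hochberg adjustment, adjusted p = 0.000862). This was 1 of 10 members against 2.41% of all genes in that contrast, and 1.73% of all genes were called higher. The mean level was 102 ± 44.9 CPM (n = 6) in WSB/EiJ and 29.1 ± 19.3 CPM (n = 37) in the other strains. In the other 6 contrasts 0 of 10 members were called. Of all genes, 1.46% were called for 129S1/SvImJ, 0.254% for A/J, 0.529% for C57BL/6J, 1.35% for CAST/EiJ, 0.192% for DBA/2J and 0.185% for NOD/ShiLtJ. In these 6 contrasts 0 to 2 members had an unadjusted p under 0.05 (edgeR). Of the 29120 genes, 2230 (DBA/2J) to 5737 (129S1/SvImJ) were at that p.

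The WSB/EiJ difference in Itga4 was above 0 in each region. It was 2.21 on the log2 scale among cortex libraries (edgeR, adjusted p = 0.0154) and 1.64 among hippocampus libraries, where it did not pass (edgeR, adjusted p = 0.139). It was 1.69 in males alone and 2.06 in libraries titled high (edgeR, adjusted p = 0.00698 and 0.00325). Leaving out each WSB/EiJ library, or the lowest 129S1/SvImJ or CAST/EiJ library, gave 1.64 to 2.03 and kept the call in 8 of 8 fits. The test of any strain difference for Itga4 passed in 55 of 57 alternatives and was lost within cortex alone and within hippocampus alone (edgeR, adjusted p = 0.055 and 0.779).

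**Figure D2:**
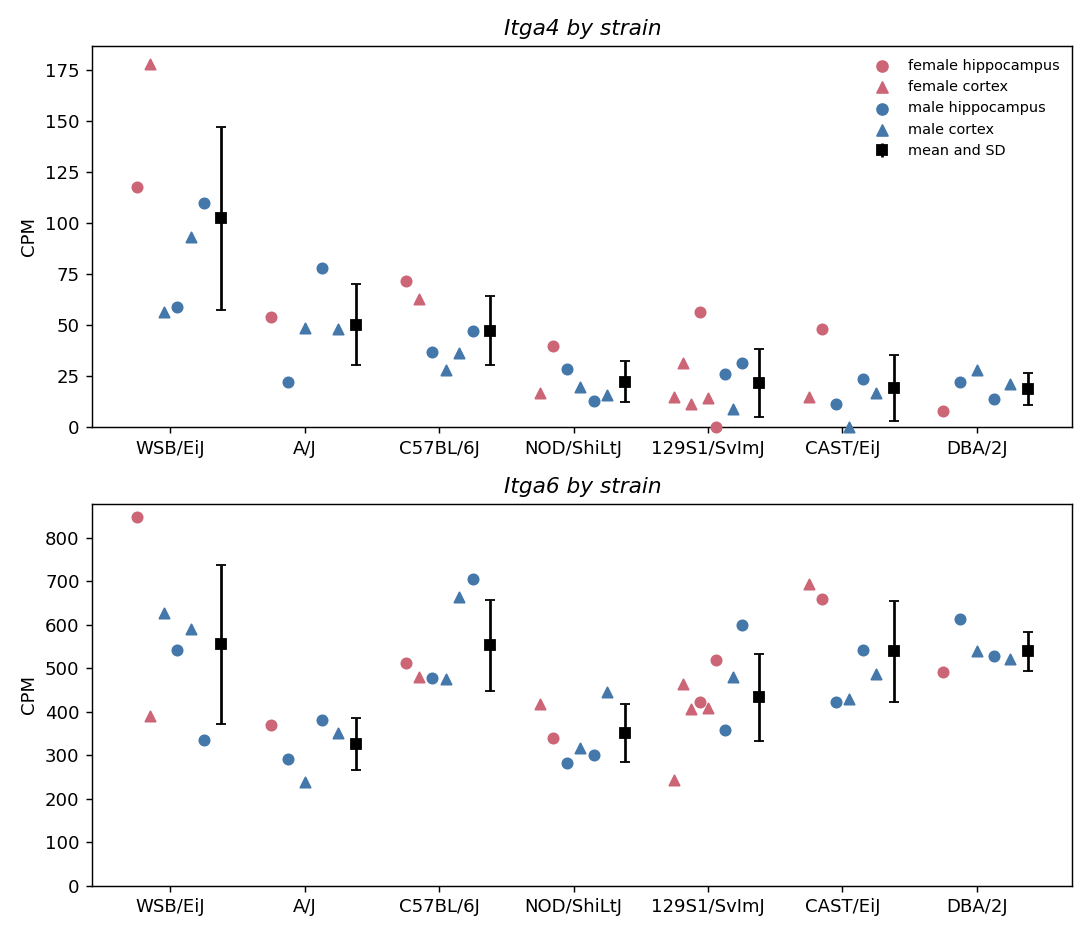
Itga4 and Itga6 in CPM in every library by strain, with coloured points for libraries by sex and region and black squares with bars for the mean and SD. Itga4 is highest in WSB/EiJ (102 CPM) and Itga6 is lowest in A/J (326 CPM) and NOD/ShiLtJ (351 CPM).

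Pericyte markers moved with the strains as well. The mean log2(CPM + 1) of the 10 pericyte markers was 7.43 ± 0.47 in WSB/EiJ, the highest of the 7 strains, against 6.27 to 7.16 in the others, and their summed level was 4903 to 9489 CPM in WSB/EiJ with all 10 above 3 counts. With this mean as a covariate, the Itga4 difference between WSB/EiJ and the other strains was 1.39 on the log2 scale and did not pass (edgeR, adjusted p = 0.242), while the test of any strain difference still passed (edgeR, adjusted p = 0.0359). Of the smooth muscle markers 2 of 10 were called lower in WSB/EiJ, against 2.41% of all genes called, and 4 had a log2 difference above 0. Their median log2 difference was -0.996, against -0.719 over all genes tested. Their summed level had a median of 432 CPM in WSB/EiJ and 470 CPM over all libraries. Of the microglia markers 0 of 10 were called and 8 had a log2 difference above 0, and their summed level was 15.2 to 152 CPM in WSB/EiJ, highest in replicate 2, which also held the highest Itga4. Leukocyte markers, which the CD45- and CD11b- gate selects against, summed to 0 to 5.77 CPM in WSB/EiJ and to at most 14.5 CPM in any library. The EC marker mean was 8.82 ± 0.23 in WSB/EiJ and 9.13 to 9.38 in the other strains. Of the EC markers 2 of 20 were called lower and 8 had a log2 difference above 0. Their summed level had a median of 19382 CPM in WSB/EiJ and 19345 CPM over all libraries. Of the neuron markers 0 of 6 were called and 6 had a log2 difference above 0, with a median of 0.857. The part of these cell types in the Itga4 result was not tested beyond the pericyte covariate.

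The exons of Itga4 (chromosome 2, 79255426 to 79333123, plus strand) overlap those of Cerkl on the opposite strand by 1124 bases, 8.04% of its exonic length. Whether counting used strand is not given in the sources used here, although the library kit keeps it. Cerkl itself had 2.12 ± 3.31 CPM in WSB/EiJ.

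Itga6, the alpha subunit of the laminin receptors, was lowest in A/J and NOD/ShiLtJ. The A/J libraries held 369, 292, 238, 380 and 351 CPM (326 ± 59.9) and the NOD/ShiLtJ libraries 418, 340, 282, 318, 300.0 and 446 CPM (351 ± 66.4). C57BL/6J (552 ± 104 CPM, n = 6, 475 to 704) and DBA/2J (539 ± 45.0 CPM, n = 5, 492 to 613) were at about the same level as each other. All 11 libraries of C57BL/6J and DBA/2J lay above all 11 of A/J and NOD/ShiLtJ, a pairing of strains chosen after the values were seen. The share of all genes that separate as fully was not determined, so this is a description only. Of the 32 libraries of all 5 other strains, 9 lay below the highest of A/J and NOD/ShiLtJ.

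The other strains overlapped with both ends. WSB/EiJ ranged widely, with 846 (replicate 1), 390, 628, 542, 589 and 335 CPM (555 ± 183), CAST/EiJ held 538 ± 115 CPM (n = 6, median 514, 422 to 693) and 129S1/SvImJ 433 ± 100 CPM (n = 9, median 421, 244 to 598). Against the mean of the other strains, Itga6 was 0.58 ± 0.18 lower in A/J and 0.46 ± 0.16 lower in NOD/ShiLtJ on the log2 scale, and neither contrast passed over all genes (edgeR's quasi-likelihood test, adjusted p = 0.16 and 0.43). The strain test of Itga6 passed in 48 of 57 alternatives. It was lost within cortex and within hippocampus alone (edgeR, adjusted p = 0.942 and 0.656), among libraries titled high (0.428), with counts drawn down to the smallest total (0.0605) and when A/J replicate 2 or 3 or NOD/ShiLtJ replicate 2, 3 or 5 was left out (edgeR, adjusted p = 0.0538 to 0.0702).

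**Figure D3:**
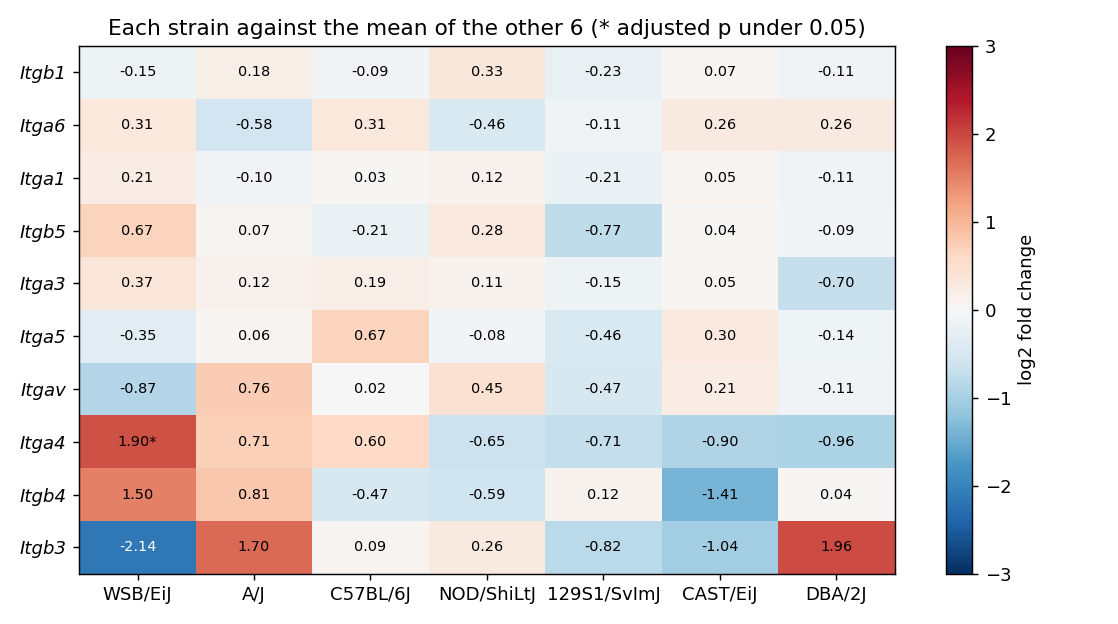
Log2 fold change of each integrin subunit in each strain against the mean of the other 6 strains, from edgeR, as colour and number, with an asterisk for an adjusted p under 0.05. Itga4 in WSB/EiJ, at 1.90, is the only contrast of a subunit that passed an adjusted p of 0.05.

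Neighbouring strains in the order of a subunit's mean log2(CPM + 1) were compared with an exact two-sided permutation test, 60 tests over the 10 genes. None passed after Benjamini-Hochberg adjustment over the 60, and 2 had an unadjusted exact p under 0.05, both for Itga4: WSB/EiJ against A/J (exact permutation p = 0.026, adjusted 0.779) and C57BL/6J against NOD/ShiLtJ (exact permutation p = 0.0152, adjusted 0.779). With so few libraries, the smallest exact permutation p possible for these pairs was 0.00216 and 0.00108. Over 60 tests, neither pair could pass on its own. Neighbours were also set by the same values and are the strains closest in level. The lack of a call is thus not read as likeness of the strains. The order for Itga4 was WSB/EiJ, A/J, C57BL/6J, NOD/ShiLtJ, DBA/2J, 129S1/SvImJ and CAST/EiJ, and for Itga6 it was C57BL/6J, DBA/2J, WSB/EiJ, CAST/EiJ, 129S1/SvImJ, NOD/ShiLtJ and A/J.

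The beta subunit shared by Itga4 and Itga6 had another order. This subunit, Itgb1, was 405 ± 92.7 CPM (n = 6) in WSB/EiJ and 388 to 540 CPM in the strain means of the others, with the highest mean in NOD/ShiLtJ (540 ± 41.9 CPM, n = 6). Over the 9 alpha and beta pairs known to form a receptor, Pearson's r of log2(CPM + 1) across the 43 libraries ranged from -0.174 (Itga6 with Itgb1) to 0.2 (Itgav with Itgb3). None passed a permutation test after Benjamini-Hochberg adjustment over the 9 (adjusted p 0.85 to 0.965). The same held within females and within males, where the smallest adjusted permutation p was 0.539. Over all 43 libraries the largest rank correlation was 0.3 for Itgav with Itgb1 (permutation p = 0.0513, adjusted 0.462), and r was 0.354 for this pair without the 2 libraries farthest from the median of Itgav. With DESeq2 size factors r was -0.276 for Itga6 with Itgb1 and 0.276 for Itgav with Itgb1 (permutation, adjusted p = 0.328 each).

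Libraries titled high and low were compared in males, where both tags were frequent. Itga1, the collagen receptor subunit, was higher in the libraries titled high. The 14 high libraries held 385 to 613 CPM with a median of 498 (498 ± 75.0), and the 13 low libraries 311 to 463 CPM with a median of 377 (374 ± 47.3). Most high libraries lay above all low ones, but 5 of 14 lay below the highest low library and 4 of 13 low libraries lay above the lowest high one.

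The difference in Itga1 was 0.43 ± 0.11 (SE) on the log2 scale, and Itga1 was the 1 of 10 members called, against 1.06% of the 27529 genes tested, or 0.294% called higher (edgeR's quasi-likelihood test with Benjamini-Hochberg adjustment, adjusted p = 0.0466). In the 13 sets of the same strain and region, the high library was above the low one in all 13, by 0.38 ± 0.25 on the log2 scale with a range of 0.01 to 0.83. Of all genes tested, 0.142% were higher in all 13 sets. With strain and region as covariates the difference was 0.42 (edgeR, adjusted p = 0.00856).

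The call for Itga1 was close to the threshold. It was kept in 14 of 45 alternatives and in 8 of 34 fits that left out 1 male library or 1 strain, where the log2 difference stayed between 0.37 and 0.46 and the adjusted p of the edgeR test ranged from 0.034 to 0.251. Those 8 fits left out 129S1/SvImJ replicate 9, A/J replicate 5, C57BL/6J replicate 5, CAST/EiJ replicate 5, DBA/2J replicate 3 or 4, NOD/ShiLtJ replicate 3 or WSB/EiJ replicate 3. Libraries titled high and low also differed in markers of cell types. The EC marker mean was 9.36 ± 0.35 log2(CPM + 1) in high and 8.98 ± 0.16 in low libraries, with 4 of 20 markers called higher. The astrocyte mean was 5.97 ± 0.58 in high and 6.89 ± 0.49 in low libraries, with 3 of 10 markers called lower and summed levels of 1499 to 7365 and 3189 to 19857 CPM. The neuron mean was 3.70 ± 1.01 against 4.85 ± 0.68. With the EC mean or the astrocyte mean as a covariate the Itga1 difference was 0.47 and 0.39 (edgeR, adjusted p = 0.106 and 0.431). Beyond these covariates, the part of these cell types in the result was not tested.

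**Figure D4:**
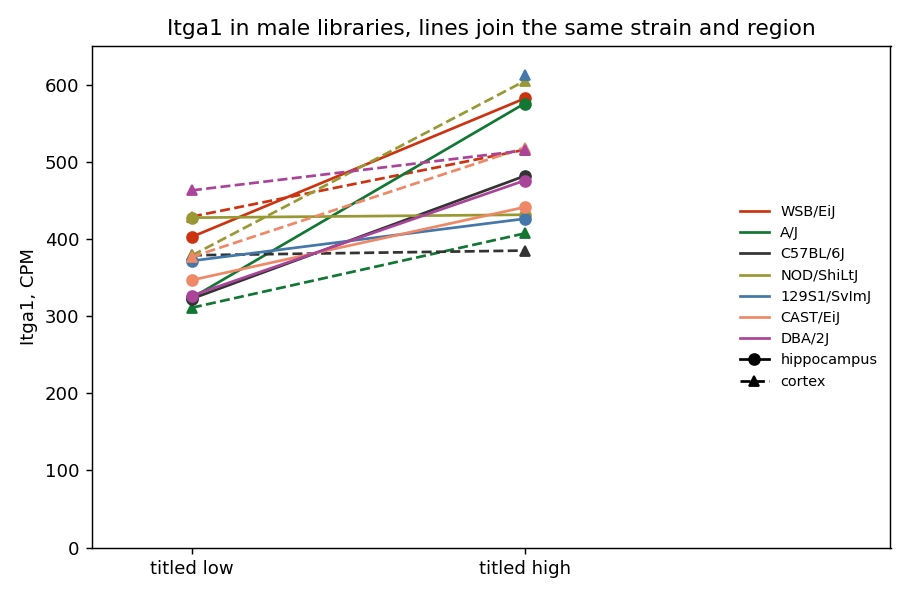
Itga1 in CPM in male libraries titled high and low, with lines joining libraries of the same strain and region. The high library is above the low one in all 13 sets, and the group means are 498 and 374 CPM.

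Of the other subunits, Itgb5, a vitronectin receptor subunit, was lower in libraries titled high but did not pass. The high libraries held 15.8 to 79.0 CPM with a median of 44.8 (42.3 ± 14.7, n = 14) and the low libraries 21.5 to 105 CPM with a median of 67.6 (66.4 ± 22.2, n = 13), and the groups overlapped widely. The log2 difference was -0.64 ± 0.22 (edgeR, adjusted p = 0.226, with DESeq2 0.0371), and the high library was lower in 12 of 13 sets of the same strain and region. Itga3 was higher in 11 of 13 sets, with a log2 difference of 0.55 ± 0.26 (edgeR, adjusted p = 0.582). The share of all genes with such counts of sets was not determined, so the counts for Itgb5 and Itga3 are a description only. Itgb1 was not called, with 432 ± 84.0 CPM in high (n = 14) and 442 ± 88.3 CPM in low libraries (n = 13) and a 95% interval of the log2 difference from -0.27 to 0.22.

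Sex called 0 of the 10 subunits by edgeR and 0 by DESeq2, against 2.85% of all genes (830 of 29120) by edgeR. At an unadjusted p under 0.05 was 1 of 10, against 3818 of 29120 genes (edgeR). Itgav came nearest, with 40.6 ± 26.9 CPM in females (n = 16, median 38.4, 3.03 to 103) and 62.1 ± 28.5 CPM in males (n = 27, median 60.6, 19.6 to 175), and the ranges overlapped over most of their length. The log2 difference was -0.61 ± 0.24 (edgeR's quasi-likelihood test, unadjusted p = 0.0135, adjusted p = 0.207). For the abundant subunits the 95% intervals of the female to male log2 difference were -0.17 to 0.26 (Itgb1), -0.21 to 0.30 (Itga6) and -0.27 to 0.19 (Itga1). The share of counts on rRNA-like genes was 1.59% to 12.1% in female and 12.97% to 29.26% in male libraries, so sex and this technical measure cannot be told apart.

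Wild-derived and long-inbred strains were compared to ask whether recent wild origin is reflected in EC. By edgeR and by DESeq2 0 of the 10 subunits were called, against 0.749% of all genes by edgeR. At an unadjusted p under 0.05 were 3 of 10, against 2041 of all 29120 genes (edgeR). Itga4 was 60.8 ± 54.1 CPM in the 12 wild-derived and 30.97 ± 19.55 CPM in the 31 long-inbred libraries, a log2 difference of 0.97 ± 0.37 (edgeR, unadjusted p = 0.0101, adjusted p = 0.373). The 2 wild-derived strains differed from each other, with means of 102 CPM in WSB/EiJ and 19.2 CPM in CAST/EiJ: without CAST/EiJ the difference was 1.73 and passed (edgeR, adjusted p = 0.0104), and without WSB/EiJ it was -0.71 (edgeR, adjusted p = 0.875). Itga6 was 547 ± 146 CPM in wild-derived and 440 ± 118 CPM in long-inbred libraries, a log2 difference of 0.31 ± 0.14 (edgeR, adjusted p = 0.564).

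Itgb5 was 66.6 ± 25.1 CPM in wild-derived libraries (n = 12) and 47.9 ± 24.6 CPM in long-inbred ones (n = 31), and Itgb3 was 1.18 ± 1.92 CPM and 4.56 ± 4.61 CPM. Neither passed (edgeR, adjusted p = 0.696 and 0.749). The median log2 difference was 0.20 over the 10 subunits and -0.38 over all genes tested. These sets are unlike, since all genes include those that reached 0.5 CPM in only 1 library.

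**Figure D5:**
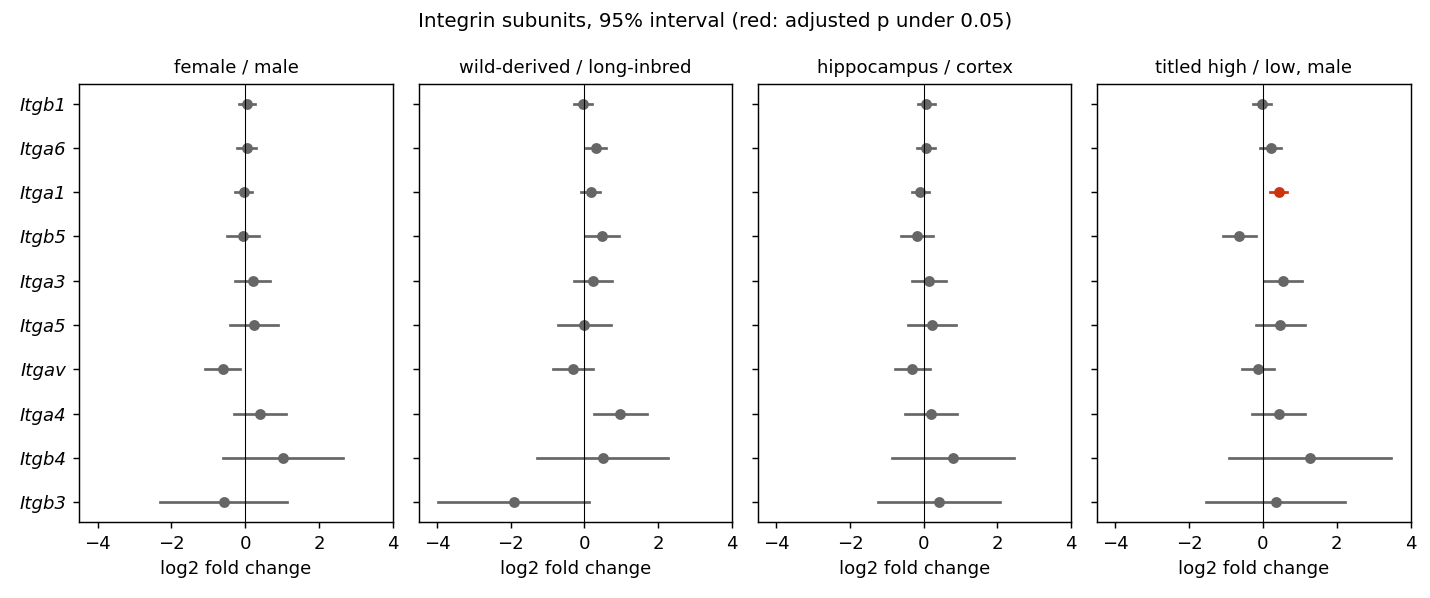
Log2 fold change with its 95% interval for each of the 10 subunits by sex, strain origin, region and title tag, from edgeR. Itga1 by title tag, at 0.43, is the only value that passed an adjusted p of 0.05.

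Between hippocampus and cortex 0 of the 10 subunits were called by edgeR and by DESeq2, against 0.0755% of all genes (22 of 29120) by edgeR. At an unadjusted p under 0.05 were 0 of 10, against 1631 of 29120 genes (edgeR). Log2 differences lay between -0.31 (Itgav) and 0.80 (Itgb4), with adjusted p from 0.669 to 0.935 (edgeR). Itgb1 was 453 ± 81.6 CPM in hippocampus (n = 22) and 430 ± 90.8 CPM in cortex (n = 21), with a 95% interval of the log2 difference from -0.14 to 0.29. In 18 sets of the same strain, sex and tag, hippocampus was higher in 7 (Itgav and Itgb5) to 12 (Itga4) sets. The change of the region difference with strain origin called 0 of 10 subunits against 0% of all genes, and its change with sex 0 of 10 against 0.00343% (edgeR, adjusted p = 1 for each gene). At an unadjusted p under 0.05 the origin by region test held Itgb4 alone of the 10 (log2 difference of differences 4.34, unadjusted p = 0.028 by edgeR), a gene at or below 3 counts in 19 of 43 libraries. Of all 29120 genes, 675 were at that p in this test.

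Genes of the integrin pathway outside the 10 were followed with lists of known pathway genes. Of 16 other integrin subunits, 0 were called by sex, origin, region, strain or title tag (edgeR, 14 tested for the tag). At an unadjusted p under 0.05 were 0 (origin) to 2 (region) of them. Of all genes tested, 1631 (region) to 3818 (sex) were at that p. Itga7 (22.8 ± 17.0 CPM over 43 libraries), a laminin receptor subunit of muscle and mural cells, and Itgb8 (20.6 ± 19.4 CPM), a partner of Itgav, had the highest means among those described here, while Itgb6 was at or below 3 counts in 43 of 43 libraries.

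Of 25 matrix and cell surface ligands, 5 passed the test of any strain difference and 20 did not, against 2.68% of all genes called. They were the laminin chains Lama3, Lama4 and Lamc1 (edgeR, adjusted p = 0.000177, 0.0386 and 0.039), fibronectin, Fn1 (7.09e-06), and vitronectin, Vtn (1.69e-05). Of 57 alternatives, Lama3 and Fn1 kept the call in 56 and Vtn in 57, but Lama4 kept it in 35 and Lamc1 in 31. In WSB/EiJ, where Itga4 was high, Lamb1 (85.0 ± 58.2 CPM against 27.6 ± 18.9), Lamc1 (713 ± 162 against 424 ± 113) and Lamc3 (273 ± 147 against 149 ± 52.3) were higher (edgeR, adjusted p = 0.0154, 0.00247 and 0.0105). Of 15 alternatives Lamb1 kept the call in 10 and Lamc1 and Lamc3 in 11 each. Pericyte markers were higher in WSB/EiJ too, with 5 of 10 called. The 15 alternatives included a fit with the pericyte mean as a covariate. Over the 15, the log2 difference was 1.11 to 2.29 for Lamb1, 0.336 to 0.904 for Lamc1 and 0.320 to 1.30 for Lamc3. Beyond that covariate, the part of pericytes in these values was not tested. Fn1, a ligand of Itga4 and Itga5, was lower in WSB/EiJ, with 2113 ± 996 CPM (n = 6) against 3066 ± 871 CPM (n = 37) and a log2 difference of -0.49 (edgeR, adjusted p = 0.0368), a call kept in 7 of 15 alternatives. Vcam1, the cell surface ligand of Itga4, was 10.05 ± 7.998 CPM in WSB/EiJ and 35.3 ± 32.02 CPM in the others and did not pass (edgeR, adjusted p = 0.167).

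CAST/EiJ, the other wild-derived strain, showed lower Fn1 (1729 ± 196 CPM, n = 6, against 3128 ± 860, n = 37, edgeR adjusted p = 5.09e-05) and lower Vtn (185 ± 74.1 against 452 ± 271 CPM, edgeR adjusted p = 0.00329). Lama3 was also lower (1.73 ± 3.14 against 32.6 ± 28.1 CPM, edgeR adjusted p = 0.00326). An effect of the strain's sequence on alignment to mm10 was not tested for these genes. Lama4 and the caveolar protein Cav1 were higher there by 0.84 and 0.75 on the log2 scale (edgeR, adjusted p = 0.0358 and 0.0383). Vtn was higher in NOD/ShiLtJ by 1.18 (edgeR, adjusted p = 0.00196) and the tetraspanin Cd81 was lower in 129S1/SvImJ by 0.88 (edgeR, adjusted p = 0.00233). Against all long-inbred strains, the wild-derived pair had lower Fn1 (1921 ± 713 CPM, n = 12, against 3324 ± 691 CPM, n = 31, edgeR adjusted p = 4.94e-06), a call kept in 60 of 62 alternatives, and higher Lama4 and Lamc3 (log2 differences 0.73 and 0.70, edgeR adjusted p = 0.0434 and 0.0353), calls kept in 29 and 40 of 62. These were 3 of 25 ligands, against 0.749% of all genes. The p-values by origin take libraries of the same strain as replicates of its origin.

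By sex, 2 of 25 ligands were called, against 2.85% of all genes, the collagen IV chains Col4a1 and Col4a2, both higher in females (log2 differences 0.47 and 0.53, edgeR adjusted p = 0.00551 and 0.000416), calls kept in 11 and 16 of 18 alternatives. Collagen IV is a ligand of the Itga1 receptor, whose own female to male difference was -0.04. Of 26 activators and adhesion complex genes, Actn4, an actin crosslinker, was higher (0.43, edgeR adjusted p = 0.00619) and Parvb, a partner of integrin-linked kinase, was lower in females (-0.54, edgeR adjusted p = 0.00506), calls kept in 10 and 14 of 18 alternatives. Of 10 integrin-associated membrane proteins, Bsg (basigin) was higher, with 10088 ± 2623 CPM in females (n = 16) and 5151 ± 1770 CPM in males (n = 27, edgeR adjusted p = 1.08e-09), a call kept in 18 of 18 alternatives.

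By title tag, the adhesion complex genes Tns1 and Tns3 (tensins, 2 of 26) were lower in libraries titled high (log2 differences -0.39 and -0.83, edgeR adjusted p = 0.0169 and 0.00989), against 1.06% of all genes called, and kept the call in 37 and 38 of 45 alternatives. Bsg and Cav1 (2 of 10 membrane proteins) were higher (0.56 and 0.67, edgeR adjusted p = 0.00387 and 0.0181), calls kept in 40 and 33 of 45. Of the 45, 34 left out a library or a strain, and others took the EC or astrocyte mean as a covariate. The log2 difference of Bsg was 0.50 to 0.63 in the 34 and 0.15 to 0.79 in all 45. For Cav1 it was 0.61 to 0.75 and 0.39 to 0.83. Beyond these covariates, the part of cell types in these 4 genes was not tested. By region edgeR called 0 genes of these 3 lists, and 2 of 25 ligands had an unadjusted p under 0.05, against 1631 of 29120 genes.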

How the data were processed

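RNA of EC sorted by FACS was depleted of rRNA and made into libraries with a stranded low-input kit, and single-end reads of 125 bp were sequenced. The authors aligned the reads to mm10 with HISAT2 2.1.0, indexed them with SAMtools 1.9 and counted them per gene with featureCounts of Subread 1.4.4. The deposited values are raw counts of 54532 genes in 43 libraries, with totals of 1626534 to 49372356 per library. A given CPM thus rests on fewer counts in the shallow libraries. Low genes also varied among deep libraries: Itga4 had 4 counts in 129S1/SvImJ replicate 6 (total 38277327) and 2921 in replicate 4 (total 44500954). No pair of libraries held identical values.

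From these counts, CPM was computed from column totals with TMM factors (edgeR 4.0.16 in R 4.3.3). A gene entered a fit when 1 or more of its libraries reached 0.5 CPM (29120 genes, or 27529 for the title tag in males). Groups came from the labels. The test was edgeR's quasi-likelihood test with non-legacy deviances (legacy=FALSE) and trended dispersion, Benjamini-Hochberg adjusted over all genes tested with a threshold of 0.05, without covariates. Neighbouring strains and correlations used permutation tests on log2(CPM + 1), exact for the strains and with 100000 draws for the correlations. Gene lengths and positions came from GENCODE M21, which matched 54409 of the 54532 identifiers, and promoters from RefSeq (GRCm38.p6). The tests by sex, origin, region, title tag and strain were also run on simulated counts, with an outcome not given here. Changes were simulated only in genes with higher mean levels than Itgb3 and Itgb4.

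Alternatives were DESeq2 1.42.0, its size factors, other filters, default deviances, covariates, subsets, reduced depth and leaving out libraries or strains. The 10 genes are named in each comparison. From each pathway list, up to 5 genes with the smallest p among those passing were named. The members, lists and several alternatives were chosen with earlier results of these data known, and covariates for cell type markers and the alternatives of the WSB/EiJ contrast were added after seeing the data.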

Additional observations from a re-analysis of the deposited data

Results flagged for a closer look

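Each of the 10 genes was checked in each of the 7 strains for a library that stood apart from the others of its strain, which gave 70 groups. In 5 of the 70 the highest or lowest library passed Dixon's criterion, and chance alone is set to give about 1 in 20. Itga4 was lowest of 9 in 129S1/SvImJ replicate 6, a female hippocampus library titled high, at 0.1 CPM. Itga5 was lowest of 6 in NOD/ShiLtJ replicate 6, a male cortex library titled high, at 2.66 CPM. Itgb1 was lowest of 6 in CAST/EiJ replicate 4, a male cortex library titled low, at 313 CPM. Itgb3 was highest of 6 in WSB/EiJ replicate 5, a male cortex library titled high, at 4.43 CPM. Itgb4 was highest of 6 in WSB/EiJ replicate 1, a female hippocampus library titled high, at 59.0 CPM.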

How the results depend on the processing

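No paired analysis was possible because no label ties libraries to a mouse. Over 2140 tests of a member under an alternative, 2084 stayed on the same side of the threshold, 44 lost the call, 3 gained it and 9, uncalled in both fits, changed sign from a value more than 1 SE from 0. In 88 of the 2084, uncalled in both fits, the sign changed from a value within 1 SE of 0. Itgb3 and Itgb4 were at or below 3 counts in 19 of 43 libraries each, deep libraries among them.

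Counts of genes called changed with the processing, and the cause was not tested. By sex 830 genes were called, against 10473 with edgeR's default deviances, 59 with the rRNA share as a covariate, 241 in cortex, 304 in hippocampus, 448 in libraries titled high and 515 to 827 without 1 strain. By origin 218 were called, against 395 with DESeq2, 6712 with default deviances, 40 in cortex, 68 in hippocampus, 123 in males, 136 titled high, 7 with counts summed per strain and 179 to 282 without 1 strain or library, where 0 to 1 members were called. By region 22 were called, against 61 with DESeq2, 8023 with default deviances, 45 with strain and sex as covariates, 7 in females and 11 to 28 without 1 strain. Among strains 781 were called, against 1335 with DESeq2, 13525 with default deviances, 186 in cortex, 184 in hippocampus, 474 in males, 1236 at reduced depth and 639 to 841 without 1 library. Of the 2 members called there, 0 were called in cortex, 0 in hippocampus, 1 titled high, 1 at reduced depth and 1 to 2 without 1 library.

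By title tag 293 genes were called, against 635 with DESeq2, 8327 with default deviances, 550 with strain and region as covariates, 27 in cortex, 5 in hippocampus, 38 with the EC mean, 39 with the astrocyte mean and 124 to 407 without 1 library or strain. Members called were 2 with DESeq2 and with default deviances, 0 without a filter, in cortex, in hippocampus and with the EC or astrocyte mean, and 0 to 1 without 1 library or strain. For WSB/EiJ against the others 701 were called, against 464 with sex and region, 202 with the pericyte mean, 240 in cortex, 195 in hippocampus, 225 in males, 1096 titled high and 301 to 805 without 1 library. The 1 member called there was 0 with the pericyte mean and 0 in hippocampus.

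Beside those 88 tests, the sign of the log2 difference changed for Itgb4 by sex (-0.12 in cortex, -0.15 to 1.44 without 1 strain, lowest without WSB/EiJ), Itga4 by origin (-0.71 without WSB/EiJ to 1.73 without CAST/EiJ), Itgav by origin (-0.85 without CAST/EiJ to 0.058 without WSB/EiJ), Itga6 by tag (-0.20 with the astrocyte mean), and in WSB/EiJ for Itga3 (-0.13 in cortex) and Itgb4 (-4.33 without replicate 1 to 1.76 without replicate 3, -2.33 in cortex, -7.27 in males).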

Other observations

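For each subunit, the 3 genes with the highest Pearson's r of log2(CPM + 1) over the 43 libraries are given as a description, and these libraries share depth, strain and sorting. The closest gene was Sh3bp4 for Itga1 (0.71), Clip2 for Itga4 (0.638), H2-T23 for Itga6 (0.692), Sppl2a for Itgb1 (0.608), Slc2a1, the glucose transporter of brain EC, for Itga3 (0.599), Card10 for Itga5 (0.704), Ehd2 for Itgav (0.745) and Calm3 for Itgb5 (0.664). For the low Itgb3 and Itgb4 it was Lama3 (0.639) and Edn3 (0.549). The next genes were Sp1 and Mkl2 for Itga1 (0.657 and 0.656), Ggt5 and Ube3b for Itga4 (0.634 and 0.625), Sema7a and Dock9 for Itga6 (0.642 and 0.626), Ehd1 and Zbtb33 for Itgb1 (0.579 and 0.574), and Rin3 and Cyfip1 for Itgav (0.722 and 0.721). They were Decr1 and Slc39a3 for Itga3 (0.576 and 0.57), Wdr45b and Atp13a1 for Itga5 (0.671 and 0.666), Hipk1 and Pde8b for Itgb5 (0.64 and 0.614), Pde4a and Cmas for Itgb3 (0.533 and 0.488), and Tspan15 and Pepd for Itgb4 (0.52 and 0.513).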
